A study of Tamarix ramosissima and Tamarix chinensis with 11 samples.

Results

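In leaves of *Tamarix chinensis* and *T. ramosissima*, 210 assembled genes had mean levels that moved in opposite directions in the 2 species when water was withheld. Of these, 157 were lower under water deficit than in the control in *T. chinensis* and higher in *T. ramosissima*, and 53 were higher in *T. chinensis* and lower in *T. ramosissima*. The members were chosen by their measured values in all 11 libraries, out of 20422 genes with a mean of at least 3 CPM (the count of a gene scaled to a fixed library total) and 117867 genes in all. The response L was log2 of the mean water deficit CPM plus 1 over the mean control CPM plus 1, for each species by itself, and this scale understates the response of genes with low values. A member had an absolute L of at least 0.8 in *T. chinensis*, with no overlap between the water deficit and control libraries of that species, and an L of the other sign in *T. ramosissima* with an absolute value of at least 0.5. No separation of the *T. ramosissima* libraries was required. Because every library took part in this choice, the levels, responses and species differences below are a description of the members, and no independent test of them was possible.

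The plants were seedlings, 14 weeks old when treatment began, from seed of invasive stands in New Mexico (*T. chinensis*) and Montana (*T. ramosissima*). Each species was therefore represented by seed of 1 origin. In the water deficit groups, TC_WD and TR_WD (3 libraries each), water was withheld until the leaves wilted, which *T. chinensis* did at day 10 and *T. ramosissima* at day 17. The controls, TC_C (2 libraries, since a further sample was lost) and TR_C (3 libraries), stood in water throughout. Each library came from the leaves of 1 plant. Species, seed origin and length of the treatment differ together in this design and cannot be told apart.

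Saltcedars are shrubs of river banks and saline ground that reach deep water with their roots once established, which young seedlings cannot yet do. In leaves that lose water, plants commonly close their stomata under the hormone abscisic acid, build protective proteins and compatible solutes, and turn down genes of growth and photosynthesis. A gene with opposite responses is one on which the plants of the 2 groups differed in direction and not only in size. With no genome at hand, a gene here is a cluster of contigs that the Trinity assembler built from the reads of both species. A component is the set of such genes with the same DN number in the identifier, whatever their c number. Whether the genes of a component share sequence was not checked. No gene names come with the identifiers, so functions are not given, the leaf tissue could not be checked against marker genes, and only 4 members are printed by identifier. The other members are described without one.

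The total count of a library lay between 10245008 and 15655257 fragments, so that 1 CPM stood for more than 10 fragments in each library. Over all 20422 genes the median L was −0.02 in *T. chinensis* and 0.04 in *T. ramosissima*. With TMM normalization, which corrects for differences in library composition, these medians were 0.02 and 0.01. These shifts are small beside the thresholds of the rule. Under TMM scaling the rule still gave 147 genes in place of the 157, and 67 in place of the 53. With TPM, the values per length of transcript, 119 of the 157 genes and 27 of the 53 met the rule, and 1 of the 157 had the other sign in *T. chinensis*.

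Opposite movement was the least common outcome among genes that responded in *T. chinensis*. Of 3631 genes that met the *T. chinensis* side of the rule on the lower side, 2130 (58.7%) were also lower by at least 0.5 in *T. ramosissima*, 1344 (37.0%) lay between, and the 157 members made up 4.32%. Of 2424 genes on the higher side, 1641 (67.7%) were also higher by at least 0.5, 730 (30.1%) lay between, and the 53 members made up 2.19%. Over all 20422 genes, an L of at least 0.5 in *T. ramosissima* was found for 19.3% and an L of at most −0.5 for 18.4%. In RNA from whole leaves, a lower value from fewer cells of a type and one from less RNA per cell cannot be told apart.

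**Figure D1:**
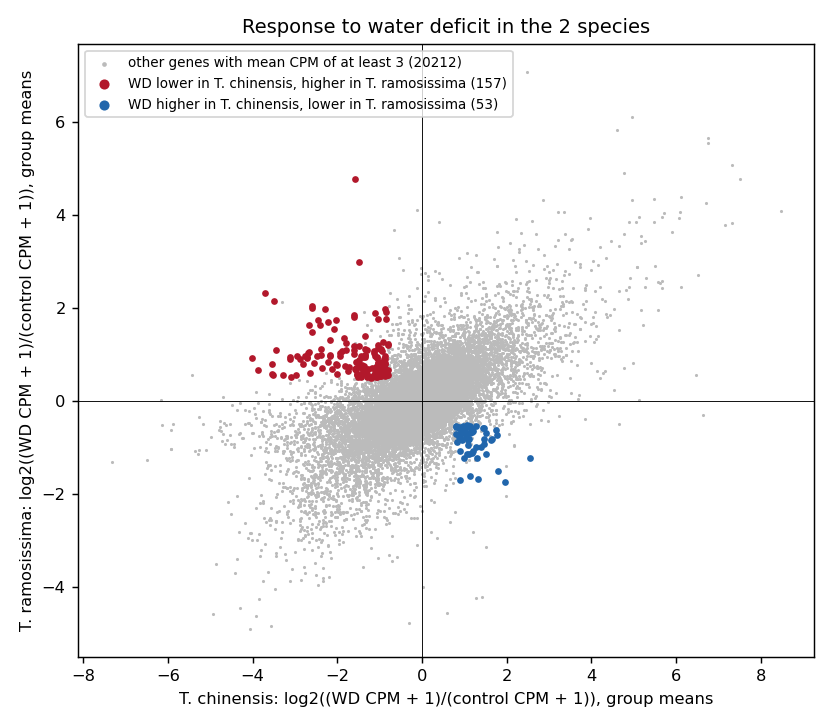
Response L (log2 of mean water deficit CPM plus 1 over mean control CPM plus 1) of each gene in *T. chinensis* (x axis) and *T. ramosissima* (y axis), for genes with a mean of at least 3 CPM in grey and the members in colour. Most genes lie near the origin or along the diagonal of equal response, and the 157 and 53 members occupy the corners of opposite sign, where the rule placed them.

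The 157 genes that were lower in TC_WD and higher in TR_WD had a larger response in *T. chinensis*, where the threshold was also higher. Their median L was −1.41 in *T. chinensis* (lowest −4.01, highest −0.81) and 0.82 in *T. ramosissima* (0.50 to 4.77). An absolute L of at least 1 was reached by 124 genes in *T. chinensis*, by 49 in *T. ramosissima* and by 40 in both. An absolute L of at least 2 was reached by 45 genes in *T. chinensis* and by 5 in *T. ramosissima*. In each of these 5, 1 TR_WD plant was far above the other TR_WD plants. For 21 of the 157 genes the response in *T. ramosissima* was the larger one. The median CPM of these genes was 3.22, 2.60 and 2.71 in the TC_WD libraries, against 13.8 and 10.9 in the TC_C libraries. It was 12.0, 20.4 and 24.2 in the TR_WD libraries, against 7.21, 9.84 and 9.39 in the TR_C libraries. By these medians every TC_WD library lay below, and every TR_WD library above, all TR_C libraries, and the TC_C libraries were somewhat above TR_C.

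The 53 genes that were higher in TC_WD and lower in TR_WD had smaller responses. Their median L was 1.12 in *T. chinensis* (0.80 to 2.54) and −0.76 in *T. ramosissima* (−1.74 to −0.52). An absolute L of at least 1 was reached by 38 genes in *T. chinensis*, by 14 in *T. ramosissima* and by 12 in both, and only 1 gene reached 2, in *T. chinensis*. For 8 of the 53 the response in *T. ramosissima* was the larger one. The median CPM was 19.9, 17.8 and 22.3 in the TC_WD libraries, against 7.23 and 6.07 in the TC_C libraries. It was 8.65, 3.92 and 5.37 in the TR_WD libraries, against 10.1, 10.3 and 10.2 in the TR_C libraries. The *T. chinensis* controls thus had a lower median than the *T. ramosissima* controls in this direction.

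**Figure D2:**
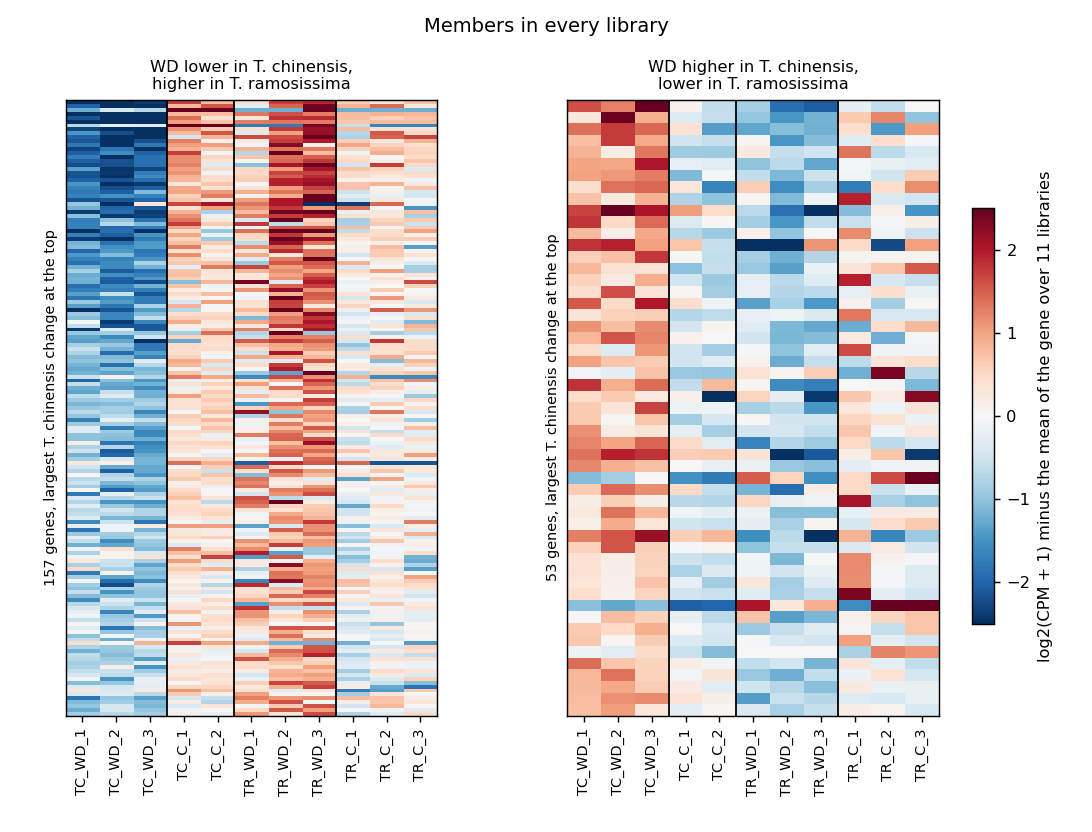
Each row is a member and each column a library, and colour gives log2(CPM + 1) relative to the mean of the row. The 157 genes and the 53 genes are shown as separate panels, with TC_WD left of TC_C and TR_WD left of TR_C, and the TR_WD 1 column of the 157 genes is paler than those of TR_WD 2 and TR_WD 3.

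Among the 157 genes, 47 also had TR_WD libraries that lay wholly above the TR_C libraries, and 2 of these had the largest response on the weaker side. TRINITY_DN32846_c2_g1 had 0.0976, 0.229 and 0.0904 CPM in TC_WD, which are counts of 1, 3 and 1, against 4.34 and 7.54 CPM in TC_C. In *T. ramosissima* it had 2.80, 5.70 and 24.2 CPM in TR_WD, against 1.93, 2.12 and 1.59 CPM in TR_C. The gene was thus close to 0 in wilted *T. chinensis*, and the plant TR_WD 3 carried most of the signal in *T. ramosissima*. From the summed counts, TC_C was 42.7 times as high as TC_WD (95% exact interval 17.9 to 133.3), and TR_WD was 5.81 times as high as TR_C (4.51 to 7.56), intervals that cover counting error only. The mean was 0.139 ± 0.0782 CPM in TC_WD (SD, n = 3) and 5.94 ± 2.26 CPM in TC_C (n = 2), and 10.9 ± 11.6 CPM in TR_WD and 1.88 ± 0.268 CPM in TR_C (n = 3 each). With L of −2.61 and 2.05, its 2 responses were close in size on that scale. Its component held 6 genes, of which 1 other was also a member, with L of −1.03 and 1.76.

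TRINITY_DN32415_c0_g1 had 0.195, 0.229 and 0.362 CPM in TC_WD, which are counts of 2, 3 and 4, against 7.77 and 5.43 CPM in TC_C. It had 10.1, 20.8 and 28.9 CPM in TR_WD, against 2.71, 5.51 and 4.62 CPM in TR_C. All 3 plants of TR_WD lay above every control plant of either species, and all 3 plants of TC_WD lay below. The summed counts gave a TC_C level 24.5 times that of TC_WD (95% exact interval 12.6 to 54.4) and a TR_WD level 4.70 times that of TR_C (3.96 to 5.61). The mean was 0.262 ± 0.0879 CPM in TC_WD (SD, n = 3) and 6.60 ± 1.65 CPM in TC_C (n = 2), and 19.9 ± 9.45 CPM in TR_WD and 4.28 ± 1.43 CPM in TR_C (n = 3 each), with L of −2.59 and 1.99. Of the 4 genes in its component, 1 other was a member with L of −1.85 and 1.35. Another gene of the component went the other way in both species, with L of 0.65 and −1.68, and its *T. chinensis* value was under the threshold.

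Among the 53 genes, 13 also had TR_WD libraries that lay wholly below the TR_C libraries. TRINITY_DN37347_c0_g1 had 17.3, 12.4 and 12.3 CPM in TC_WD, against 4.06 and 5.94 CPM in TC_C. In *T. ramosissima* it had 4.33, 3.03 and 8.22 CPM in TR_WD, against 11.9, 15.5 and 28.8 CPM in TR_C. The levels crossed over: wilted *T. chinensis* was close to control *T. ramosissima*, and control *T. chinensis* was close to wilted *T. ramosissima*. The mean was 14.0 ± 2.85 CPM in TC_WD (SD, n = 3) and 5.0 ± 1.33 CPM in TC_C (n = 2), and 5.19 ± 2.70 CPM in TR_WD and 18.7 ± 8.88 CPM in TR_C (n = 3 each), with L of 1.32 and −1.67. The other gene of its component above 3 CPM was lower under water deficit in both species, with L of −0.62 and −1.02.

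TRINITY_DN33564_c0_g1 had the largest *T. chinensis* response of the 53 genes, with 32.2, 25.1 and 103.5 CPM in TC_WD against 10.7 and 6.07 CPM in TC_C. It had 5.13, 1.96 and 1.59 CPM in TR_WD, against 8.21, 6.10 and 9.92 CPM in TR_C. The controls of the 2 species were alike in level, and the plant TC_WD 3 was far above the other TC_WD plants, though each of them lay above every control. The mean was 53.6 ± 43.3 CPM in TC_WD (SD, n = 3) and 8.41 ± 3.31 CPM in TC_C (n = 2), and 2.89 ± 1.94 CPM in TR_WD and 8.08 ± 1.91 CPM in TR_C (n = 3 each), with L of 2.54 and −1.22. Its component held 1 other gene, with L of −1.0 and −0.50.

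**Figure D3:**
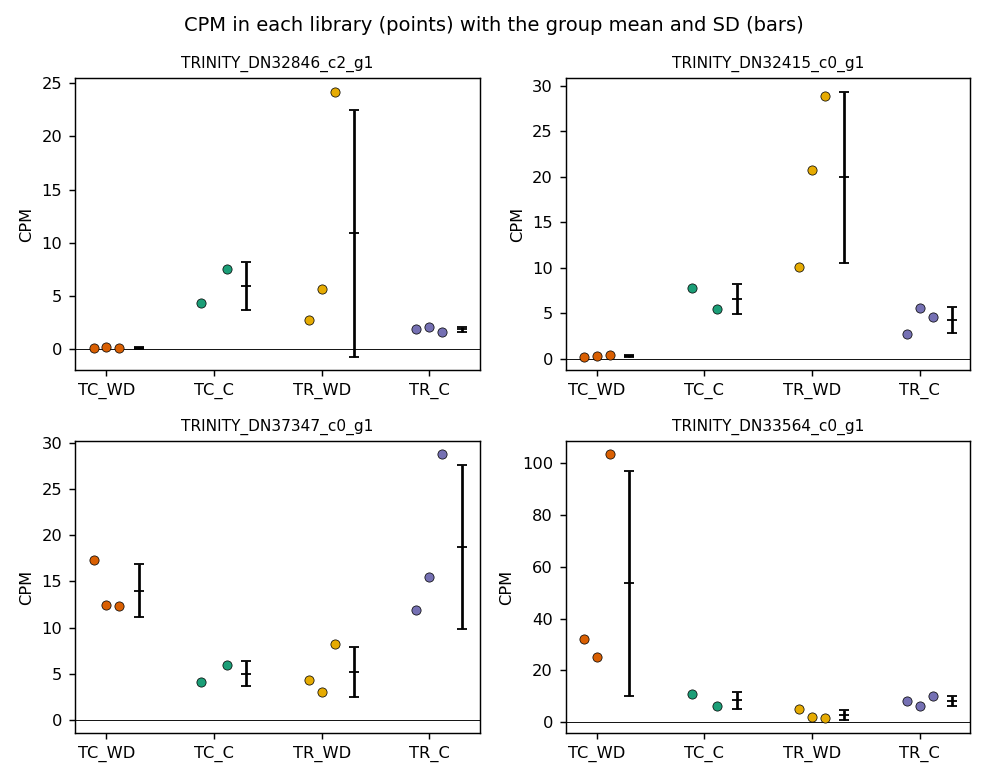
CPM in each library (points) of the 4 members printed by identifier, with the mean and SD of each group beside the points, and TC_WD, TC_C, TR_WD and TR_C from left to right. In the upper panels TC_WD lies near 0 and TR_WD above TR_C, and in the lower panels TC_WD lies above TC_C and TR_WD below TR_C. The SD bar of TR_WD in the first panel reaches below 0 because 1 plant was far above the others.

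The members with the highest mean CPM had smaller responses in *T. ramosissima* than the genes printed by identifier. The most abundant of the 157 genes had 466.3, 442.8 and 546.1 CPM in TC_WD, against 854.1 and 1154 CPM in TC_C. It had 1901, 3573 and 2206 CPM in TR_WD, against 1108, 1008 and 1209 CPM in TR_C, and all 4 groups but the 2 controls were apart from each other. The second had 48.0, 66.6 and 64.6 CPM in TC_WD, against 723.0 and 695.4 CPM in TC_C. In *T. ramosissima* it had 1017, 1255 and 995.9 CPM in TR_WD, against 691.7, 747.5 and 726.2 CPM in TR_C, so that its control level was nearly the same in both species. The most abundant of the 53 genes had 742.6, 820.3 and 653.3 CPM in TC_WD, against 489.1 and 351.4 CPM in TC_C. It had 299.5, 258.1 and 203.4 CPM in TR_WD, against 501.5, 377.6 and 368.8 CPM in TR_C. With L of 0.81 and −0.71 this gene lay near both thresholds, and its TR_WD plants still lay below every TR_C plant.

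The largest values of L in *T. ramosissima* rested wholly or mostly on 1 plant each. The 5 genes with an L of at least 2 there included TRINITY_DN32846_c2_g1. Others had TR_WD values of 0, 0 and 12.0 CPM, of 0.32, 0 and 69.2 CPM, and of 0, 0 and 16.4 CPM. The member with the strongest *T. chinensis* response, L of −4.01, had 1.37, 0.382 and 1.54 CPM in TC_WD and 43.7 and 21.6 CPM in TC_C. The member with the highest *T. ramosissima* response, L of 4.77, had 0.160, 100.9 and 0 CPM in TR_WD, against 0.50, 0.0848 and 0.227 CPM in TR_C. That response came from the plant TR_WD 2 alone, and the other TR_WD plants were within or below the range of the controls. In *T. chinensis* the same gene was at 0, 0.0764 and 0 CPM in TC_WD and at 0.0903 and 4.09 CPM in TC_C, so its L of −1.59 came from 1 control plant.

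Members just inside the thresholds had values like those of genes just outside. Among the 157 genes the smallest absolute L in *T. chinensis* was −0.81, and the nearest gene that missed the threshold had −0.80. On the *T. ramosissima* side the nearest member and the nearest gene left out both had 0.50 to 2 decimals. That member had 9.94, 4.46 and 2.52 CPM in TR_WD against 0.714, 7.38 and 2.95 CPM in TR_C, which overlap. Among the 53 genes the values were 0.80 inside and 0.79 outside in *T. chinensis*, and −0.52 inside and −0.50 outside in *T. ramosissima*.

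The *T. ramosissima* plants did not take part equally. Relative to the mean of their controls on the log2(CPM + 1) scale, the median of the 157 genes was 0.21 in TR_WD 1, 1.07 in TR_WD 2 and 1.14 in TR_WD 3. TR_WD 1 was above the control mean for 94 of the 157 genes and below it for 62, whereas TR_WD 2 was above for 142 and TR_WD 3 for 145. It was the lowest of the 3 TR_WD plants for 110 of the 157 genes (70.1%), and for 35.2% of all 20422 genes. All 3 plants were above the control mean for 78 genes, 2 plants for 68 and a single plant for 11. With group medians in place of means, 117 of the 157 genes still had an L of at least 0.5 in *T. ramosissima*, and 13 no longer had a positive one. The TC_WD plants, which had to lie apart from TC_C by the rule, had medians of −1.36, −1.55 and −1.62.

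In the 53 genes the TR_WD plants were closer to each other. The median relative to the control mean was −0.60 in TR_WD 1, −1.23 in TR_WD 2 and −0.91 in TR_WD 3. TR_WD 1 was below the control mean for 48 genes, TR_WD 2 for 53 and TR_WD 3 for 51, and all 3 plants were below it for 46. TR_WD 1 was the highest of the 3 for 30 genes (56.6%), against 42.7% of all genes. By these medians, TR_WD 1 was the TR_WD plant nearest to the controls in both directions. It was not so over all 20422 genes, where TR_WD 1 was above the control mean by at least 0.5 for 5572 genes and below it for 5301, against 2739 and 4758 in TR_WD 2 and 4060 and 3947 in TR_WD 3. With group medians in place of means, 35 of the 53 genes kept an L of at most −0.5, and 6 no longer had a negative one. The control mean could itself rest on 1 plant. A member with 308.1, 41.3 and 35.6 CPM in TR_C had 104.9, 64.3 and 68.4 CPM in TR_WD. TR_C 1 was the highest TR_C plant for 23 of the 53 genes and the lowest for 16. The TC_WD plants had medians of 0.94, 0.99 and 1.17.

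**Figure D4:**
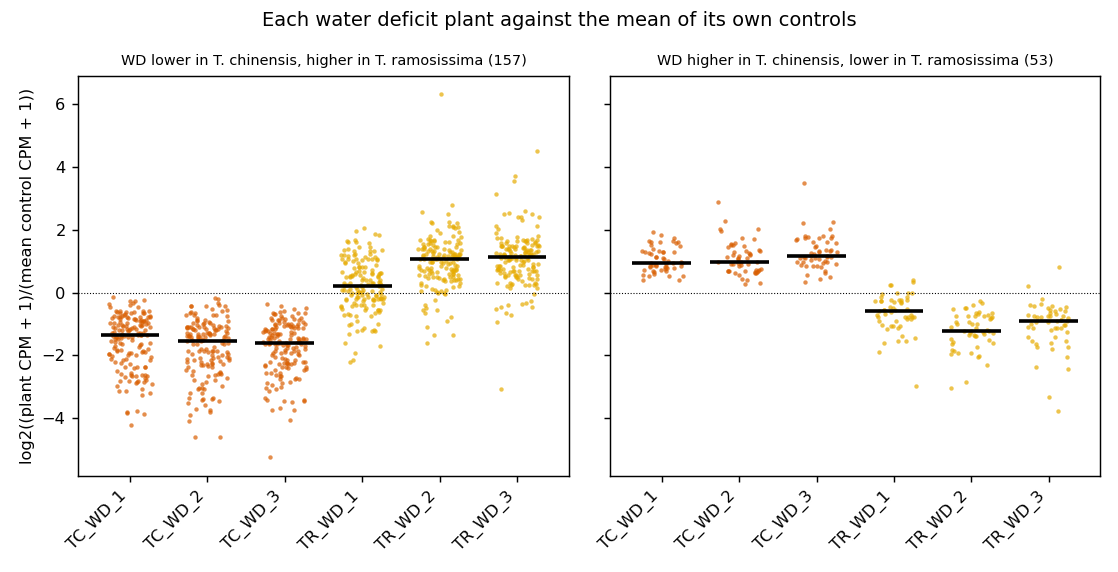
Log2 of each member's CPM plus 1 in a water deficit plant over the mean CPM plus 1 of the controls of that species, with a bar at the median, for the 157 genes and the 53 genes. In the 157 genes the median of TR_WD 1 is 0.21, against 1.07 in TR_WD 2 and 1.14 in TR_WD 3.

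Single libraries decided which genes met the rule. Each library was left out in turn and the rule applied again. The 157 genes became between 126 (without TR_WD 3) and 232 (without TR_WD 1), and between 109 and 144 of the original 157 were kept each time. The 53 genes became between 45 (without TR_WD 2) and 135 (without TR_WD 1), with 106 without TC_C 1 and 87 without TC_WD 1, and between 31 (without TR_C 1) and 49 of the original 53 were kept. TR_C 1 was the highest of the TR_C plants for 43.4% of the 53 genes, and for 21.7% of all genes. Only 38 of the 157 genes (24.2%) and 8 of the 53 (15.1%) met the rule in all 11 of these selections. The 38 had a median L of −2.10 in *T. chinensis* and 1.08 in *T. ramosissima*, and 18 of them had separated TR libraries. The 8 had medians of 1.35 and −1.07, and 4 of them had separated TR libraries. Without TR_WD 1 the median L of the same 157 genes in *T. ramosissima* was 1.06, and that of the 53 genes was −0.94. Without TR_C 1, which had the lowest TMM factor (0.832, against 0.933 to 1.09 in the other libraries), these medians were 0.78 and −0.65.

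The members were set beside the calls of edgeR's quasi-likelihood test with Benjamini-Hochberg adjustment, fitted over all genes tested. The rule used the same contrasts, so nothing about the members is read from these counts. In *T. ramosissima*, the libraries were fully separated for 47 of the 157 genes (29.9%), where TR_WD lay wholly above TR_C for 15.0% of all 20422 genes. They were separated for 13 of the 53 genes (24.5%), where TR_WD lay wholly below for 16.7% of all genes. The term for the difference between the species' responses, at an FDR of at most 0.05, called 9 of the 157 genes with the *T. chinensis* response below the *T. ramosissima* one, where 0.0543% of 31320 genes tested were called in that direction. It called 0 of the 53 genes in the other direction, where 0.00958% were called. Of all 20 genes called by this term, 9 were thus members. At an unadjusted p under 0.05 the term had 140 of the 157 genes, where it had 6.56% of all genes tested in that direction, and 45 of the 53, where it had 5.03%. DESeq2, a second count model, called 88 of the 157 genes at an FDR of at most 0.05, where it called 2.13% of all genes with an adjusted value, and 25 of the 53, where it called 1.10%.

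The number of calls depended on single libraries. The 9 members called became 77 of the 157 without TR_WD 1, together with 8 of the 53 genes, where 2.15% and 0.596% of all genes tested were called in these directions. The count was 10 without TC_WD 2, where 0.0645% of all genes were called. It was 5 without TC_WD 1 (0.0259% of all genes), TC_WD 3 (0.0162%), TR_WD 2 (0.0161%) or TR_WD 3 (0.0226%). It was 4 without TC_C 1 (0.0129%), 3 without TC_C 2 (0.00965%) or TR_C 2 (0.00976%), and 2 without TR_C 1 (0.00641%) or TR_C 3 (0.00647%), and 0 of the 53 genes were called in any of these fits. The 9 genes had a median L of −2.99 in *T. chinensis* and 0.92 in *T. ramosissima*, and mean levels between 3.69 and 639.2 CPM. They included TRINITY_DN32415_c0_g1, with a fitted difference between the responses of −6.78 (SE 0.65, log2), and the other member of its component. That call of TRINITY_DN32415_c0_g1 was lost with limma-voom and without TR_C 1 or TR_C 3. TRINITY_DN32846_c2_g1, with −7.72 (SE 1.16), TRINITY_DN37347_c0_g1, with 3.39 (SE 0.61), and TRINITY_DN33564_c0_g1, with 4.30 (SE 0.92), were not called. All 3 were called with DESeq2, with no filter on low counts and without TR_WD 1, and TRINITY_DN32846_c2_g1 also without TR_WD 3 and with no normalization beyond library size.

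Within *T. chinensis*, the thresholds of the study's methods (FDR up to 0.005, log2 fold change of 1 or more in size) were set on the quasi-likelihood test. The paper used an earlier edgeR and does not name this test, so the calls here do not repeat its own. It reported differentially expressed genes at these thresholds in both species, with more of them in *T. chinensis*. At these thresholds 3 of the 157 genes were called lower, where 0.291% of 28210 genes were. None of the 53 genes was called higher (0 of 53), where 0.0567% of genes were. At an FDR of at most 0.05 the counts were 86 of the 157 genes, where 10.9% of genes were called lower, and 24 of the 53, where 7.68% were called higher. These counts became 56 and 7 without TC_WD 3, where 8.01% and 4.51% of all genes were called in the same directions. They were 74 and 12 without TC_WD 1 (7.52% and 4.65% of all genes), and 95 and 32 without TC_WD 2 (14.6% and 13.7%). Without TC_C 1 they were 1 and 0 (0.0931% and 0% of all genes), and without TC_C 2 they were 0 and 0 (0% in both directions). At an unadjusted p under 0.05 there were 131 of the 157 genes, beside 19.5% of all genes lower, and 49 of the 53, beside 17.3% higher. DESeq2 at the stricter thresholds called 75 of the 157, beside 7.87% of all genes, and 17 of the 53, beside 6.09%.

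Within *T. ramosissima* the stricter thresholds called 0 of the 157 genes higher and 0 of the 53 lower, where 0% of 29025 genes were called in either direction. At an FDR of at most 0.05, 5 of the 157 genes were called higher, where 1.65% of genes were, and 0 of the 53 were called lower, where 2.39% were. Without TR_WD 1 these counts were 38 and 3, where 1.80% and 2.36% of all genes were called in the same directions, and without TR_WD 2 they were 4 and 0 (1.12% and 1.45%). Without TR_WD 3 (0.273% and 0.234% of all genes), TR_C 1 (0.125% and 0.251%), TR_C 2 (0.229% and 0.666%) or TR_C 3 (0% in both directions) they were 0 and 0. At an unadjusted p under 0.05 there were 54 of the 157 genes (34.4%), beside 10.4% of all genes higher, and 15 of the 53 (28.3%), beside 11.1% lower. DESeq2 at the stricter thresholds called 12 of the 157, beside 2.16% of all genes, and 2 of the 53, beside 3.13%. By edgeR at an FDR of at most 0.05 in each species, 3 of the 157 genes were called lower in *T. chinensis* and higher in *T. ramosissima*, as were 0.0113% of the 26563 genes tested in both. The other way round, 0 of the 53 were called, as were 0% of all genes.

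The species were compared directly for the same genes, as *T. chinensis* minus *T. ramosissima* on the log2(CPM + 1) scale. These differences use the libraries of the rule and are partly fixed by it. Under water deficit the 157 genes had a median difference of −2.14, against −0.03 for all 20422 genes. The TC_WD libraries lay wholly below the TR_WD libraries for 122 of the 157 (77.7%), as for 16.3% of all genes. In the controls the median difference was 0.33, against 0.04 for all genes, and 98 of the 157 genes (62.4%) had control means within 0.5 of each other, where 86.0% of all genes did. The control of *T. chinensis* was the higher one by at least 0.5 for 47 genes and the lower one by at least 0.5 for 12. The order of the species was thus reversed between the treatments for 119 genes (75.8%), by at least 0.5 on both sides for 41.

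In the 53 genes, the median difference was 1.44 under water deficit and −0.58 in the controls. Only 20 genes (37.7%) had control means within 0.5 of each other. For 28 (52.8%) the *T. chinensis* control was lower by at least 0.5, and for 19 its control libraries lay wholly below those of *T. ramosissima* (35.8%, where 7.82% of all genes did). The TC_WD libraries lay wholly above the TR_WD libraries for 41 genes (77.4%), as for 13.9% of all genes. The order of the species was reversed for 35 genes (66.0%), by at least 0.5 on both sides for 23. A control difference of at least 2 in size was found for 0.558% of all 20422 genes. In 3 of the 157 genes the *T. chinensis* control exceeded the *T. ramosissima* control by at least 2, with 11.8 to 28.0 CPM in TC_C and 0 to 2.01 CPM in TR_C. Each of these 3 had 1 TR_WD plant far above the others. In 3 of the 53 the *T. chinensis* control was lower by at least 2, with 0.0903 to 2.66 CPM in TC_C and 10.6 to 21.2 CPM in TR_C. Their TC_WD means were low as well, from 1.06 to 7.0 CPM.

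**Figure D5:**
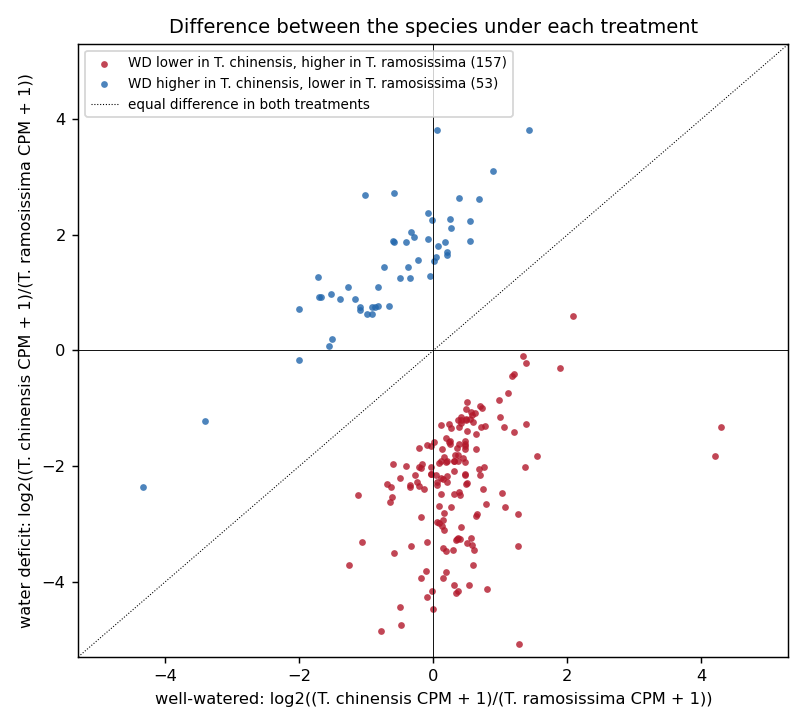
Difference between the species (*T. chinensis* minus *T. ramosissima*, log2(CPM + 1) of the group means) in the controls on the x axis and under water deficit on the y axis. Only the 157 genes and the 53 genes are drawn, and the dotted line marks an equal difference in both treatments. The 157 genes sit low with a median of 0.33 in the controls and −2.14 under water deficit, and the 53 genes sit high with medians of −0.58 and 1.44.

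Level and spread within groups, both of which the rule bears on, were set beside those of all 20422 genes as descriptions. The median of the mean TPM was 11.8 for the 157 genes and 6.99 for the 53, against 17.8 for all genes. A mean under 10 CPM was found for 51.0% of the 157 and 41.5% of the 53, against 30.0% of all genes. The median SD within groups, on the log2(CPM + 1) scale, was 0.608 for the 157 and 0.546 for the 53, against 0.334 for all genes. The rule did not use the length of the assembled genes. The effective length was taken as count over TPM and scaled to the median of the genes with at least 50 counts in every library. It was shorter in the 157 genes (median 0.70) and longer in the 53 (1.39) than in all genes (0.911). For the genes that met the *T. chinensis* side of the rule, whatever they did in *T. ramosissima*, it was 0.908 on the lower side and 0.873 on the higher side. A scaled length of at least 1.5 was found for 49.1% of the 53 genes, 10.8% of the 157 and 21.6% of all genes. Taken from the library with the highest count only, the median length was 1.24 for the 53, 0.699 for the 157 and 0.913 for all genes. The longest of the 53, at 3.97, had 42.0, 9.58 and 12.1 CPM in TR_C. The next, at 3.63, had 501.5, 377.6 and 368.8 CPM. Whether length in the 53 goes with the level of TR_C 1 was not tested.

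Because 1 gene of the plant can be split over several assembled genes, the members were also placed in their components. The 157 genes came from 149 components, 8 of which held 2 members each, and the 53 came from 52. Another gene with at least 3 CPM stood in the component of 86 of the 157 genes and 31 of the 53. The same pair of signs as the member was found in 26 of the 115 neighbours of the 157 genes and in 10 of the 40 neighbours of the 53. In *T. chinensis*, 21 of the 115 and 11 of the 40 moved against the member by at least 0.8. The matching shares over all genes were not worked out, so no trait of the neighbours is read from these counts. Counts were then summed over each component, a step chosen after seeing the data. The sums still met the rule for 84 of the 149 components (56.4%) and 22 of the 52 (42.3%), and kept both signs for 116 and 46. The other components no longer met the rule as sums, and whether this came from the split of reads among contigs was not tested. Effective length also shifted between libraries in some members. Among genes with at least 50 counts in every library, the largest effective length was at least 1.5 times the smallest for 18 of 53 genes (34.0%) in the group of 157, for 6 of 20 (30.0%) in the group of 53, and for 19.0% of all such genes.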

How the data were processed

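Leaf RNA of 11 seedlings, 1 per library, was sequenced as read pairs. After trimming with Prinseq, the authors built 1 Trinity assembly from both species, mapped every library onto it with Bowtie and used RSEM to estimate abundance (version: not given in the sources used here). They deposited raw expected counts per gene, without normalization, and 3.11% to 4.00% of the values of a library were not whole numbers. The deposited TPM values are those that RSEM derived for each library. RSEM shared out fragments that fit several contigs, so related genes can divide their counts. Unmapped columns numbered 0.

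CPM was the deposited count over the column sum, unrounded, with a pseudocount of 1 on the log2 scale. For tests, counts were rounded and analysed in R 4.3.3 with edgeR 4.0.16 (TMM, quasi-likelihood, Benjamini-Hochberg), keeping genes that exceeded 1 CPM in 2 or more libraries. All 157 and 53 members passed this filter in the fit of all libraries, while the *T. chinensis* fit held 156 and 52 and the *T. ramosissima* fit 155 and 53. Each within-species fit used that species alone, and the difference between responses was the species by treatment term over all libraries. The SE printed with a fitted difference was worked back from the test, as its size over the square root of the F statistic. The quasi-likelihood test was tested on simulated data. DESeq2 1.42.0, limma-voom (limma 3.58.1), edgeR's exact test, other scalings, filters, pseudocounts and thresholds, the replicate number as a block and each library left out in turn were alternatives. Ratios of summed counts carry exact 95% intervals.

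Identifiers are printed for the 2 members of each direction, among those with separated *T. ramosissima* libraries, whose smaller absolute L was largest. The members with the highest mean CPM and those at the thresholds were set by the same rule, and the members with the largest L were chosen after their values were seen. The members and all lists were chosen with earlier results of these data known. Python 3.11.15 with pandas 2.3.3 applied the rule. Sequences, gene functions and networks were not analysed here.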

Additional observations from a re-analysis of the deposited data

Results flagged for a closer look

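The fitted difference between the responses of the species, *T. chinensis* minus *T. ramosissima*, was −6.78 on the log2 scale for TRINITY_DN32415_c0_g1 and passed an FDR of 0.05 in edgeR's quasi-likelihood test over all genes. The adjusted p of the same test was 0.0504 without TR_C 1 and 0.0561 without TR_C 3, and limma-voom gave an adjusted p of 0.119, so the call was lost in these 3 alternatives. All 3 TC_WD libraries lay below both TC_C libraries, and all 3 TR_WD libraries lay above all 3 TR_C libraries. In 47 of the 157 genes every TC_WD library lay below the TC_C libraries and every TR_WD library lay above the TR_C libraries, and in 13 of the 53 genes the separation ran the other way in each species. For these 47 and 13 genes as groups, the difference between the species was not tested. The members were chosen on these libraries, so none of these values is independent of the choice.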

How the results depend on the processing

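The number of genes in the first direction (157) was 88 with a pseudocount of 5, 77 with a mean of at least 10 CPM and 47 with separation required in *T. ramosissima* too. It lay between 126 and 232 with 1 library left out, and between 147 and 202 with TPM (196, of which 119 were among the 157), other scalings, a pseudocount of 0.5 or a mean of at least 1 CPM. The number in the second direction (53) was 22, 31 and 13 under the same 3 changes and 82 with TPM (27 of them among the 53). It was 67 with TMM or median-ratio scaling, 64 with a pseudocount of 0.5 and 70 with a mean of at least 1 CPM. With 1 library left out it lay between 45 and 135. Component sums, added after seeing the data, gave 90 and 27.

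The 20 calls of the species by treatment term, 9 of them members, were 893 and 113 with DESeq2, 8 and 3 with limma-voom, 1793 and 183 with no filter on low counts, 65 and 20 with no normalization beyond library size, and 2 and 2 at an FDR of 0.005 with an absolute difference of at least 1. With 1 library left out they lay between 2 and 849, and between 2 and 85 for members. The 98 calls in *T. chinensis* were 3940 with DESeq2, 4054 with the exact test, 5751 with no filter, 5254 at an FDR of 0.05 with no fold change threshold, and between 0 and 864 with 1 library left out. The 864 came without TC_WD 2, and leaving out any other library gave 0. Where 1 TC_C library remained, it was assumed to vary like the other groups. The 0 calls in *T. ramosissima* were 1530 with DESeq2, 1354 with the exact test, 2451 with no filter and 1175 at an FDR of 0.05 with no fold change threshold, and stayed at 0 with each library left out. Why the tests and filters differ so widely was not tested.

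With the replicate number as a replicate block, the term called 5 genes, 3 of them members, and the calls were 0 in both species. Samples with the same number did not deviate together (correlations of −0.148, −0.158 and 0.0842 in *T. ramosissima*, 0.0156 and 0.0874 in *T. chinensis*), so the numbers were not taken as pairs. The difference between responses kept its sign in every alternative for the 4 genes printed by identifier, from −7.11 to −6.47 for TRINITY_DN32415_c0_g1, −8.27 to −6.46 for TRINITY_DN32846_c2_g1, 2.97 to 3.82 for TRINITY_DN37347_c0_g1 and 3.32 to 4.94 for TRINITY_DN33564_c0_g1. These 4 genes were chosen for separated libraries and large responses in both species, so the choice largely fixed the sign. Counting error is largest, relative to the level, in the members near the minimum of 3 CPM.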
